A study of Mus musculus with 23 samples.

Results

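The genes described here encode subunits of the transcription factor NF-kB, its feedback inhibitors and a few of its targets, and they were read in type 1 conventional dendritic cells (cDC1) sorted from mouse melanomas. All 10 of them, out of 13572 gene rows in the deposited count table, were found by symbol: Nfkb1, Nfkb2, Rel, Nfkbia, Nfkbiz, Tnfaip3, Birc3, Traf1, Cflar and Sod2. The cells came from PGE2-deficient tumours, grown from BRAFV600E melanoma cells with a knockout of Ptgs1 and Ptgs2, or from control tumours, grown from BRAFV600E Control melanoma cells. Ptgs1 and Ptgs2 encode cyclooxygenases, the enzymes at the head of prostaglandin E2 (PGE2) synthesis. All host mice were wild-type C57BL/6, so host cells kept both cyclooxygenases in either group, and tumours were taken on day 6 after the cells were injected under the skin. Each library was made by Smart-seq3 from a pool of 10 cells sorted as CD45+ MHC-II+ CD11c+ CD103+ CD11b-. There were 4 mice per group, with 11 pools from PGE2-deficient tumours (2 from mouse 2 and 3 from each other mouse) and 12 from control tumours.

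In resting cells NF-kB dimers are held in the cytoplasm by inhibitors of the IkB family. Signals from Toll-like, interleukin-1 and tumour necrosis factor (TNF) receptors lead to the destruction of IkB and free the dimers to enter the nucleus. Several of the genes they then induce, Nfkbia and Tnfaip3 among them, encode proteins that shut the pathway off again. In dendritic cells NF-kB accompanies maturation, the switch to antigen presentation with high costimulation and cytokine output.

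The promoters were searched for a pattern of letters that NF-kB dimers can bind. RefSeq windows of 250 bases before a transcription start (GRCm38.p6) were at hand for 8 of the 10 genes. The NF-kB consensus decamer was taken as 3 guanines, a guanine or adenine, any 2 bases, 2 cytosines or thymines and 2 cytosines. Searched on both strands, it was found for 5 of the 8, namely Nfkbia, Rel, Nfkb2, Tnfaip3 and Sod2. Of all 27025 genes with such a window, 8.23% had a match. A looser pattern on either strand, 3 guanines and 2 cytosines with any 5 bases between them, includes every consensus match. It was in 6 of the 8 genes and in 48.7% of all genes. The windows of Nfkbia (chr12:55492648-55492897, minus strand) and Rel (chr11:23770970-23771219, minus strand) are printed whole, because these are the inhibitor and the subunit with the highest levels per length. Capitals mark consensus matches on either strand, and the last base of each is next to the RefSeq start.
Nfkbia: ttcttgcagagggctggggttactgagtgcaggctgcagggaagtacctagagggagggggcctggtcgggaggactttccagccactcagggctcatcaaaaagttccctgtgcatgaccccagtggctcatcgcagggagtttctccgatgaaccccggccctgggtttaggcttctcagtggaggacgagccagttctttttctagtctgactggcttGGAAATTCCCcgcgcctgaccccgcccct
Rel: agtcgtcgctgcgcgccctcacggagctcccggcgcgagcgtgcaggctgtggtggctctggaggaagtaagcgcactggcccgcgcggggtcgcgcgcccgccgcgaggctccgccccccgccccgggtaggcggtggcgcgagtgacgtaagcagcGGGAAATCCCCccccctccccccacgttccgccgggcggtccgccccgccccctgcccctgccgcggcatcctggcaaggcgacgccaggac
The remaining matches are given as stretches of 30 bases, with the decamer, or the overlap of more than 1 decamer, in capitals. They lie at chr19:46304689-46304718, chr19:46304707-46304736, chr19:46305449-46305478 and chr19:46305695-46305724 (plus strand) for Nfkb2, at chr10:19015516-19015545 and chr10:19015411-19015440 (minus strand) for Tnfaip3 and at chr17:13007746-13007775 (plus strand) for Sod2.
Nfkb2, start 1: gatcgtcacGGGAATTCCCCccctcggggg
Nfkb2, start 1, next to it: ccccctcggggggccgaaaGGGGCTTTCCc
Nfkb2, start 2: tccgacggcaGGAATGTCCCcacaaaagcc
Nfkb2, start 3: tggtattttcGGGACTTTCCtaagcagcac
Tnfaip3: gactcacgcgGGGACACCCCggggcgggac
Tnfaip3, near the start: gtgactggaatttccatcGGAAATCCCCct
Sod2: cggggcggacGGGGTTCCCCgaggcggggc
Birc3, Traf1 and Cflar had no consensus match in their windows. Some windows lie in annotated exons (GENCODE M21) of their own gene. These cover 250, 0 and 234 of the 250 bases for Nfkb2 starts 1, 2 and 3. They cover 110 bases for the Tnfaip3 window with matches, 22 for Sod2, 1 for Rel and 0 for Nfkbia. For Nfkb2 starts 1 and 2 and for Cflar, the bases just after the RefSeq start were not found near the start of a GENCODE transcript. A match is a run of letters and says nothing about binding in these cells, and matches farther from the start were not searched. Variants outside both patterns were not searched and carry no capitals, so a window without a consensus match may still hold a site.

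Libraries held between 25571 and 98554 counts, and mice between 101017 and 230478. All 9 listed cDC1 markers had counts, between 152 and 304 per pool in PGE2-deficient tumours and between 54 and 160 in control tumours. Other cell types left traces. Markers of plasmacytoid dendritic cells (pDC) had 30 counts in the PGE2-deficient group and 207 in the control group, where they reached 72 in a pool. Markers of cDC2 had 40 and 150 counts, macrophage markers 24 and 156, and T and NK cell markers 75 and 11. Summed cDC2 markers did not overlap, with 29.2 to 166 CPM in PGE2-deficient mice and 231 to 565 CPM in control mice. The B cell marker that could be read had no count, melanoma markers had 1 and 9 counts, and none of the 7 listed neutrophil markers could be read. Markers of mature dendritic cells summed to 2754 ± 1618 CPM in PGE2-deficient tumours and 1023 ± 382 CPM in control tumours (mean ± SD, n = 4 mice each, overlapping groups), and genes of the stress of tissue dissociation to 3200 ± 720 and 2210 ± 727 CPM. The part of these markers in the results was not tested. Some values are given without libraries that had macrophage, pDC or T and NK cell markers. No library was left out for cDC2 markers. A pool mixes its cells, so more cells of a type and more RNA per cell cannot be told apart in any result given here.

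Between the groups none of the 10 genes was called. Counts were summed per mouse and tested with edgeR's quasi-likelihood test, in which 2076 genes passed the filter on low counts and an adjusted p (Benjamini-Hochberg over those genes) under 0.05 made a call. Of the 10 genes, 6 passed the filter, and 0 of the 6 were called higher or lower, where 4.96% of all tested genes were called (2.7% higher and 2.26% lower, or 56 and 47 genes, against 45 and 67 with upper quartile scaling). Without adjustment 0 of the 6 had a p under 0.05 (18.7% of all tested genes), and DESeq2 also called 0. In none of the 10 genes did all mice of one group lie above all mice of the other, which held for 10.6% of tested genes and for 5.36% of the untested rows with 30 or more counts. The median log2 fold change of the 6 tested genes was 0.11, and that of all tested genes 0.0079. Levels are in CPM, the counts scaled to a common library size by the TMM method of edgeR, and fold changes are PGE2-deficient over control.

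**Figure D1:**
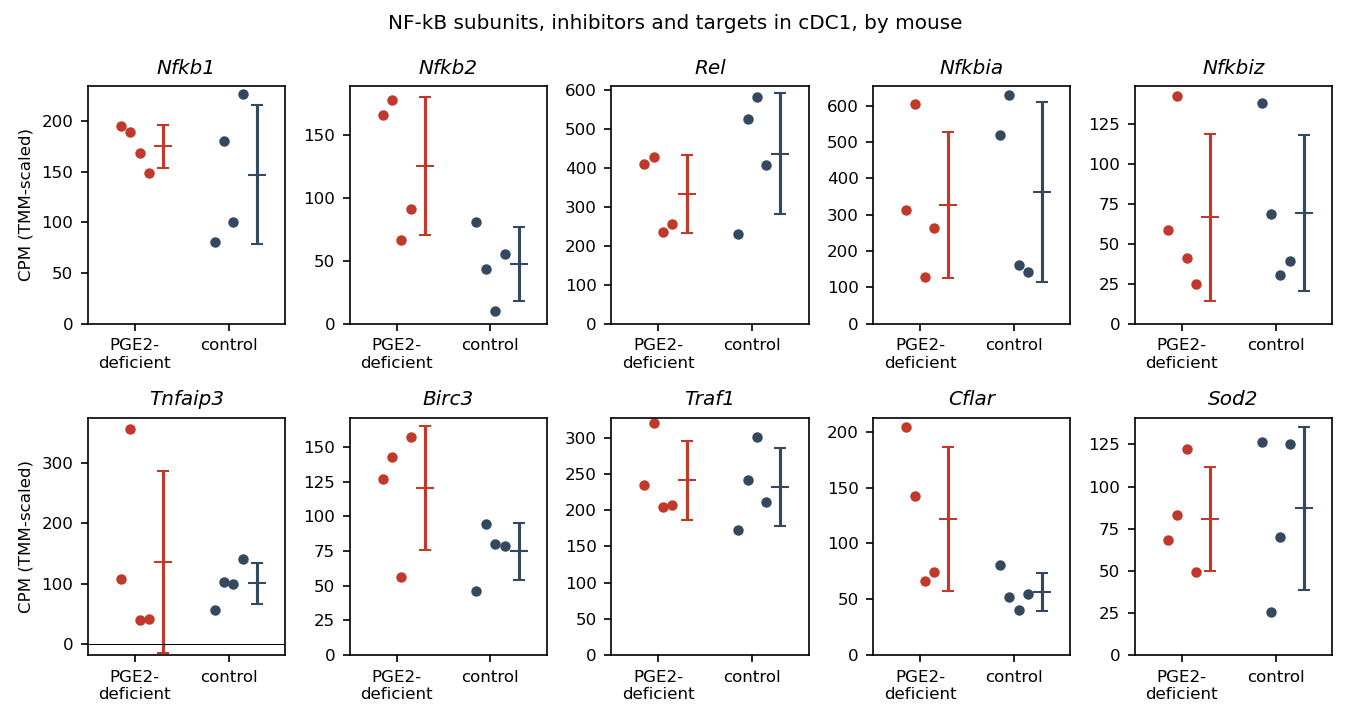
CPM (TMM-scaled, linear axis) of the 10 genes in each mouse, one point per mouse in the order of mouse number, with the mean and SD beside the points, PGE2-deficient on the left and control on the right of each panel. The groups overlap in every panel, least in Nfkb2 and Cflar, whose means are 125 and 122 CPM against 47.1 and 56.8 CPM.

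Of the 3 subunit genes among the 10, Nfkb2 differed most, at low counts. Nfkb2 encodes the precursor of the DNA-binding subunit of the non-canonical pathway, which is also an inhibitor in its unprocessed form. It had 166, 178, 66.3 and 90.8 CPM in PGE2-deficient mice 1 to 4, against 80.5, 43.0, 10.0 and 54.9 CPM in control mice 1 to 4. Control mouse 1 lay above PGE2-deficient mouse 3, and all other mice were separated. The 56 counts of the PGE2-deficient group against 20 of the control group were too few for the filter. The means were 125 ± 55.0 against 47.1 ± 29.3 CPM (SD, n = 4 each), a ratio of 2.66 (exact two-sided permutation test on log2(CPM + 1), p = 0.0571, where 0.0286 is the smallest p the design allows). The difference in log2(CPM + 1) was 1.595 with all mice and ran from 0.99 without control mouse 3 (p = 0.114) to 1.95 without control mouse 1, the control mouse that overlapped (p = 0.0286, the smallest possible there). Without any of the other mice p was 0.0571 to 0.114. In an edgeR fit without the count filter its log2 fold change was 1.31 ± 0.46 (SE) with an unadjusted p of 0.00486 and an adjusted p of 0.182. Every one of the 11 PGE2-deficient pools had an Nfkb2 count, with 1 to 11 counts and a median of 5. Of the 12 control pools 2 had none, and the median was 1. Exons of Nfkb2 share 830 bases with genes on the opposite strand. One of them, Psd, had 13 counts in all libraries, and whether counting used strand is not given in the sources used here, so reads of both strands cannot be told apart.

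Nfkb1 encodes the matching precursor of the canonical pathway. It had 195, 190, 168 and 149 CPM in PGE2-deficient mice 1 to 4, against 80.5, 181, 100 and 227 CPM in control mice 1 to 4. The PGE2-deficient mice lay inside the range of the control mice, which were more spread. The log2 fold change was 0.20 ± 0.32 (SE, edgeR adjusted p = 0.81), with a 95% interval from 0.72-fold to 1.83-fold.

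Rel encodes c-Rel, the lymphoid and myeloid subunit. It had 409, 427, 235 and 256 CPM in PGE2-deficient mice 1 to 4, against 230, 525, 582 and 408 CPM in control mice 1 to 4. The lowest and the 2 highest mice of all 8 were control mice. The log2 fold change was −0.44 ± 0.28 (SE, edgeR adjusted p = 0.453), with an interval from 0.49-fold to 1.11-fold. In 10 libraries, 3 of them PGE2-deficient and 7 control, markers of macrophages, pDC or T and NK cells reached 10 counts for at least one of these types. When these were left out, the log2 fold change of Rel was 0.068 (adjusted p = 0.942), the other direction. In the other 16 alternatives it was negative and not called, from −0.65 without control mouse 1 (unadjusted p = 0.0233, adjusted p = 0.2) to −0.28 without control mouse 3. In the fit without the 10 libraries, control mice 2, 3 and 4 kept a single pool each, and 873 genes were tested. Mature dendritic cell markers had 84.4 to 2281 CPM in the control pools left out and 68.9 to 3155 CPM in those kept. What turned the sign of Rel was not tested.

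None of the inhibitor genes was called, and the mice of the groups overlapped in each. Nfkbia encodes IkB-alpha, which pulls dimers off DNA and back to the cytoplasm. It had 312, 605, 128 and 264 CPM in PGE2-deficient mice 1 to 4, against 518, 628, 161 and 141 CPM in control mice 1 to 4. High and low mice occurred in both groups. The log2 fold change was −0.20 ± 0.44 (SE, edgeR adjusted p = 0.864), with an interval from 0.46-fold to 1.65-fold, so changes within that interval are not resolved. Its sign turned without control mouse 2, which held the highest level (0.22), and without PGE2-deficient mouse 3 (0.094).

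Nfkbiz encodes a nuclear IkB protein that works as a coactivator at secondary response genes. Its values were 58.5, 142, 40.8 and 24.8 CPM in PGE2-deficient mice 1 to 4 and 138, 68.8, 30.1 and 39.2 CPM in control mice 1 to 4. With 29 counts against 28 it failed the filter, and the groups had nearly the same range (exact p = 0.886). Control pools showed it unevenly, since 1 pool of control mouse 1 held 39.3% of the group's counts.

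Tnfaip3 encodes the ubiquitin-editing enzyme that switches off signalling from TNF and Toll-like receptors. It had 107, 356, 40.8 and 41.3 CPM in PGE2-deficient mice 1 to 4, against 57.5, 103, 100 and 141 CPM in control mice 1 to 4. PGE2-deficient mouse 2 lay above all others, and 2 mice of the same group lay below all control mice. The log2 fold change was 0.24 ± 0.56 (SE, edgeR adjusted p = 0.877), with an interval from 0.53-fold to 2.65-fold, so changes within that interval are not resolved. Without PGE2-deficient mouse 2 the log2 fold change was −0.78 (edgeR adjusted p = 0.485). A single pool of that mouse held 23 of the group's 54 counts.

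Of the genes of TNF receptor signalling and survival, Birc3 and Cflar had higher means in PGE2-deficient tumours, neither with a call, and Traf1 was level. Birc3 encodes a ubiquitin ligase of the receptor complex that keeps non-canonical NF-kB signalling low and blocks cell death. It had 127, 142, 56.1 and 157 CPM in PGE2-deficient mice 1 to 4, against 46.0, 94.6, 80.3 and 78.4 CPM in control mice 1 to 4. All PGE2-deficient mice but mouse 3 were above every control mouse. The log2 fold change was 0.59 ± 0.39 (SE, edgeR adjusted p = 0.465), with an interval from 0.85-fold to 2.67-fold.

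Cflar encodes c-FLIP, which blocks caspase-8 at death receptors. It had 205, 142, 66.3 and 74.3 CPM in PGE2-deficient mice 1 to 4, against 80.5, 51.6, 40.1 and 54.9 CPM in control mice 1 to 4. Control mouse 1 lay above PGE2-deficient mice 3 and 4, and the other 3 control mice lay below all PGE2-deficient mice. With 55 counts against 24 it failed the filter. The means were 122 ± 64.9 against 56.8 ± 17.0 CPM (SD, n = 4 each), a ratio of 2.15 (exact two-sided permutation test, p = 0.0857). Without the filter its log2 fold change was 1.01 ± 0.45 (SE, edgeR unadjusted p = 0.024, adjusted p = 0.418). A pool of PGE2-deficient mouse 1 held 14 of the 55 counts, and without that mouse the difference in log2(CPM + 1) was 0.68, against 0.98 with all mice. Pools without any Cflar count numbered 0 of 11 in the PGE2-deficient group and 3 of 12 in the control group.

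Traf1 encodes an adaptor of TNF receptors and is itself induced by NF-kB. It had 234, 320, 204 and 206 CPM in PGE2-deficient mice 1 to 4, against 173, 241, 301 and 212 CPM in control mice 1 to 4. The groups covered much the same range. The log2 fold change was 0.029 ± 0.27 (SE, edgeR adjusted p = 0.961), with a 95% interval from −0.53 to 0.59, the narrowest of the 6. Upper quartile scaling turned its sign (−0.041), and with the 10 libraries named for Rel left out it was 0.60 (adjusted p = 0.591).

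Sod2, the mitochondrial superoxide dismutase gene and a target of NF-kB, had 68.2, 83.0, 122 and 49.5 CPM in PGE2-deficient mice 1 to 4, against 127, 25.8, 70.3 and 125 CPM in control mice 1 to 4. With 44 counts against 37 it failed the filter. The PGE2-deficient mice lay within the control range (exact p = 0.943).

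**Figure D2:**
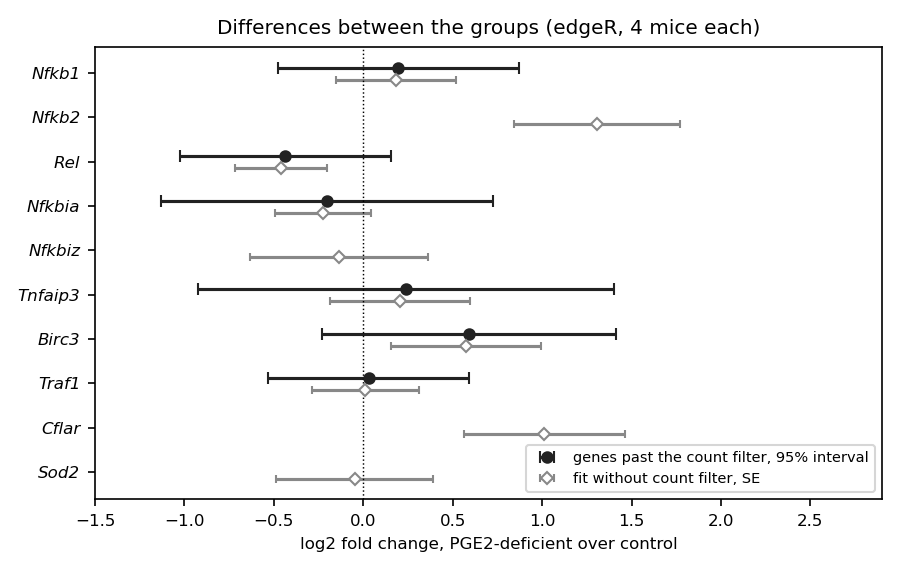
Log2 fold change, PGE2-deficient over control, of each gene (4 mice per group). Filled circles with 95% intervals are the 6 genes past the count filter, all of whose intervals include 0, and open diamonds with standard errors are the fit of all rows without the filter, in which Nfkb2 stands at 1.31 and Cflar at 1.01.

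Per kilobase of annotated exon (GENCODE M21, GRCm38), Nfkbia had the highest level, 203 ± 125 CPM per kb in PGE2-deficient and 225 ± 154 in control tumours (SD, n = 4 each). Its position is chromosome 12, 55489410 to 55492647, minus strand. Rel (chromosome 11, 23736847 to 23770970, minus strand) came next with 44.4 ± 13.5 and 58.4 ± 20.8 CPM per kb. In PGE2-deficient tumours Traf1 (27.4), Nfkb2 (27.3), Birc3 (24.1), Tnfaip3 (18.9), Nfkb1 (14.5), Nfkbiz (13.3), Cflar (9.62) and Sod2 (8.08 CPM per kb) followed. In control tumours the order was Traf1 (26.3), Birc3 (14.9), Tnfaip3 (13.9), Nfkbiz (13.8), Nfkb1 (12.2), Nfkb2 (10.3), Sod2 (8.69) and Cflar (4.48 CPM per kb). Nfkb2 thus stood in the fourth place among the PGE2-deficient mice and in the eighth among the control mice. From Traf1 on, most neighbours in these orders differed by less than their SD between mice, so their order is not firm. The lengths count all annotated exons, which lowers the level of genes with long rare isoforms. Whether reads or molecules were counted is not stated, and counts of molecules need no division by length. In CPM without that division Rel had the highest mean of the 10 in both groups, 332 ± 100 and 436 ± 155 (SD). Nfkbia came next with 327 ± 201 CPM in PGE2-deficient and 362 ± 248 CPM in control tumours.

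An index of spread between pools of the same mouse was higher for some NF-kB genes than for most tested genes. The index was taken as the squared deviation of pool counts from those expected by depth, divided by the expected counts, per degree of freedom within mice. The index is near 1 where counting error alone acts, and its median over tested genes was 1.71. It was 5.18 for Nfkbia, 4.91 for Traf1 and 3.74 for Rel, at the 94.2, 93.4 and 90 percentile of tested genes. Nfkb1 had 3.15, Cflar 2.73, Nfkbiz 2.68 and Tnfaip3 2.27. The index was 1.02 for Birc3, 1.58 for Nfkb2 and 0.881 for Sod2. It was not corrected for count level, and it can rise with counts where spread exceeds counting error. Nfkbia, Traf1 and Rel had the most counts (292, 216 and 346). Nfkb1 had 154, Tnfaip3 99, Birc3 88, Sod2 81, Cflar 79, Nfkb2 76 and Nfkbiz 57 counts. The part of count level in these differences was not tested. Nfkbia ranged from 95.1 to 950 CPM over PGE2-deficient pools (median 275) and from 0 to 994 CPM over control pools (median 203). Rel ranged from 169 to 604 CPM over PGE2-deficient pools (median 341) and from 169 to 1182 CPM over control pools (median 396).

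Rel and Traf1 were high in the pools with more markers of mature dendritic cells. After removal of the group means, log2(CPM + 1) of Rel correlated with that of the summed mature markers over the 23 pools by r = 0.68, and that of Traf1 by r = 0.68. For Rel the value was 0.61 over the 11 PGE2-deficient pools and 0.74 over the 12 control pools, and for Traf1 0.63 and 0.74. For Nfkbia the values were 0.64 and 0.45, and for Nfkb2 0.51 and 0.11. The Spearman rho over PGE2-deficient and control pools was 0.72 and 0.78 for Rel, and 0.46 and 0.78 for Traf1. Pools share mice and depth, and 3 of the mature markers (Ccr7, Ccl22 and Il12b) are also listed as NF-kB targets, so these figures describe the pools and carry no p. Rel also went with pDC markers (r = 0.63). A pool of control mouse 3 held 72 pDC marker counts together with the most Rel and Traf1 counts of all pools, 43 and 24. Without it r was 0.51 for Rel with pDC markers and 0.67 for Rel with mature markers. Nfkb2 went against pDC markers (r = −0.56, with −0.018 over PGE2-deficient and −0.67 over control pools, and −0.40 without the same pool). The part of pDC RNA in the levels of Rel and Nfkb2 was not tested.

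**Figure D3:**
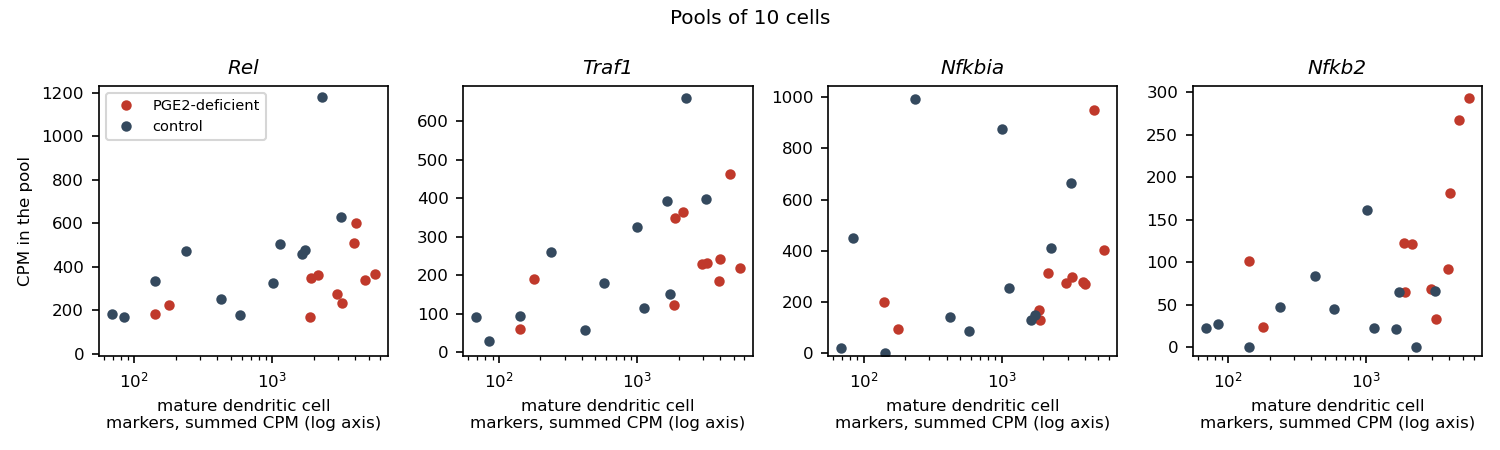
CPM of 4 NF-kB genes in each pool of 10 cells (vertical axis, linear) against the summed CPM of mature dendritic cell markers (horizontal axis, log scale), PGE2-deficient pools in red and control pools in dark blue. Rel and Traf1 rise along the axis in both groups (r = 0.68 each after group means were removed), and the highest Rel and Traf1 points belong to 1 pool of control mouse 3.

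Among the 10 genes, the pairs Tnfaip3 with Birc3 (r = 0.71), Nfkbia with Birc3 (0.69) and Rel with Traf1 (0.69) went together most over the 23 pools. Without the pool with the most pDC marker counts these pairs had 0.70, 0.69 and 0.61. Nfkbia with Nfkb2 then had 0.81, against 0.57 over all pools, so this ranking depends on that pool. Rel and Traf1 had 0.56 over PGE2-deficient and 0.75 over control pools. Nfkbia and Birc3 had 0.82 and 0.68, with a Spearman rho of 0.79 over PGE2-deficient and 0.42 over control pools, and 1 control pool had 0 counts of both. Tnfaip3 and Birc3 had −0.022 and 0.98, with a Spearman rho of 0.15 over PGE2-deficient and 0.92 over control pools. In 2 control pools, and in no PGE2-deficient pool, both of these genes had 0 counts, and the other control pools held 2 to 8 counts of each, so little can be read from the 0.98. Of the 2075 other tested genes, the pattern of Traf1 was most like that of Ccr7, the chemokine receptor that guides dendritic cells to lymph nodes (r = 0.77), followed by Zfand6 (0.72) and Serpinb6b (0.71). That of Rel was most like Cd63 (0.85), Plxnc1 (0.73) and Tmem123 (0.72), and that of Birc3 like Sh3pxd2b (0.89), Zbtb46 (0.87), a transcription factor of conventional dendritic cells, and Nucks1 (0.84). Nfkbia was most like Myo1g (0.86), M6pr (0.85) and Cggbp1 (0.84), and Tnfaip3 like Nucks1 (0.81), Atxn7l3b (0.77) and Cnp (0.76). Many of these counts are low, pools with 0 counts weigh heavily on this scale, and the genes were picked as the highest of many, so their r values are too high as estimates.

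In the wider pathway 92 further genes were listed by role, of which 88 had a row and 26 passed the filter. Of these 26, 3 were higher and 1 lower, beside 4.96% of all tested genes, and all 4 were a receptor or targets. The lists were chosen with earlier results of these data known, so shares called in them are a description and no test. Among the 3 tested kinase genes none was called and 0 had an unadjusted p under 0.05. Ikbkb, the kinase that marks IkB for destruction, had 132 ± 32.1 CPM in PGE2-deficient and 185 ± 44.5 CPM in control tumours (log2 fold change −0.52 ± 0.30, edgeR adjusted p = 0.379). Tab2, which links ubiquitin chains to the kinases upstream, had 163 ± 72.8 and 99.4 ± 28.4 CPM (0.62 ± 0.41, adjusted p = 0.462).

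Among the 4 tested adaptor genes none was called, and 1 had an unadjusted p under 0.05. This was Malt1, the paracaspase that cleaves Tnfaip3 protein, with 80.0 ± 20.4 CPM in PGE2-deficient and 206 ± 173 CPM in control tumours (−1.43 ± 0.48, edgeR adjusted p = 0.0981). Malt1 was called without the count filter (−1.46, adjusted p = 0.00688), with the filter on 4 mice (adjusted p = 0.0349) and without control mouse 1 (−1.76, adjusted p = 0.0105), and without control mouse 4 its log2 fold change was −0.71. Casp8, the caspase that c-FLIP blocks, had 118 ± 32.9 and 73.1 ± 59.9 CPM (0.68 ± 0.44, adjusted p = 0.451).

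Of 3 tested ubiquitin regulators none was called and 0 had an unadjusted p under 0.05. Tax1bp1, an adaptor of the Tnfaip3 protein, had 384 ± 46.3 CPM in PGE2-deficient and 296 ± 31.9 CPM in control tumours without overlap of the mice (0.37 ± 0.22, edgeR adjusted p = 0.399). Itch, a ubiquitin ligase of the same complex, had 85.8 ± 42.2 and 113 ± 40.0 CPM (−0.35 ± 0.39, adjusted p = 0.685).

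Of the 2 tested receptors Tlr3, the endosomal receptor for double-stranded RNA and a cDC1 marker, was higher (1.25 ± 0.35, edgeR adjusted p = 0.0448). It had 265 ± 125 CPM in PGE2-deficient and 109 ± 24.2 CPM in control tumours (SD, n = 4 each). Summed cDC1 markers, Tlr3 among them, were also separated, with 3965 to 5750 CPM in PGE2-deficient mice and 1936 to 3352 CPM in control mice. Leaving out a mouse ended the call of Tlr3 for 6 of the 8 mice, with log2 fold changes of 0.89 to 1.48. Of 14 tested targets 9 had an unadjusted p under 0.05, where 18.7% of all tested genes did. As this list was chosen with earlier results of these data known, that share is no test of NF-kB targets. Of the 14, 2 were higher, 1 was lower and 11 were not called. The higher ones were the chemokine gene Ccl5 (6.16 ± 0.70, adjusted p = 1.54e-05) and Il12b, a subunit of interleukin-12 (2.86 ± 0.71, adjusted p = 0.0259), and the lower one was Il1b, for interleukin-1 beta (−1.55 ± 0.18, adjusted p = 1.55e-05). Ccl5 had 1920 ± 2003 CPM in PGE2-deficient and 23.8 ± 21.3 CPM in control tumours, Il12b 481 ± 501 and 57.3 ± 63.6 CPM, and Il1b 721 ± 88.2 and 2097 ± 500.3 CPM. Il1b kept its call in all 17 alternatives (adjusted p of at most 0.0347). Il12b lost its call without PGE2-deficient mouse 1 (1.82) or control mouse 3 (2.53), with DESeq2 and with robust dispersion. Ccl5 had 5.17 without PGE2-deficient mouse 2 and kept its call. With limma-voom over libraries the calls of Ccl5 (3.24, adjusted p = 0.365), Il12b (2.16, adjusted p = 0.36) and Tlr3 (1.298, adjusted p = 0.0763) were lost. Mature dendritic cell markers, Il12b among them, were higher on average in the same group, as given above.

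**Figure D4:**
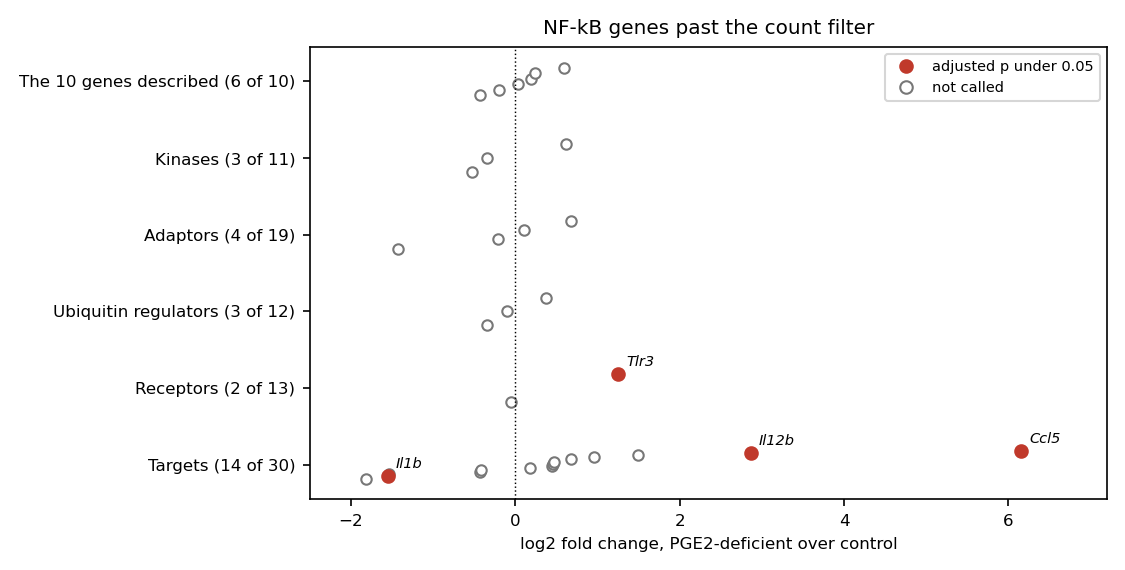
Log2 fold change, PGE2-deficient over control, of every gene past the count filter among the 10 genes and among 5 lists of other NF-kB pathway genes, with the number tested of the number listed. Filled red points are the 4 genes with an adjusted p under 0.05, which are in the receptor and target lists, and open points the others. The lists were chosen with earlier results of these data known.

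None of the 7 other genes of subunits and IkB proteins passed the filter. Relb, the partner of the processed Nfkb2 product, had 80 counts in PGE2-deficient and 28 in control tumours (189 ± 115 against 65.9 ± 11.98 CPM, overlapping groups, exact p = 0.0857). In the edgeR fit without the count filter, which called 194 of 13311 rows, Relb was called higher (log2 fold change 1.39 ± 0.40, adjusted p = 0.0355). Nfkbib, for IkB-beta, had 25 and 8 counts (49.7 ± 8.35 against 18.4 ± 6.29 CPM), and its mice did not overlap (exact p = 0.0286, the smallest possible, and adjusted p = 0.555 in the edgeR fit without the filter), where 5.36% of the untested rows with 30 or more counts were separated. Rela, the main transactivating subunit, had 110 ± 41.0 against 73.5 ± 14.4 CPM (exact p = 0.2). These 3 were named after their values were seen. In the other 4 (Nfkbie, Nfkbid, Bcl3 and Nfkbil1) the groups overlapped.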

How the data were processed

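The authors deposited raw counts, a whole number for each gene in each library. STAR and build are from the submitters' processing notes, which list STAR 2.5.4b and the mouse build GRCm38 (mm10). The counting program, its annotation, its use of strand and whether reads or molecules were counted are not stated in the sources used here. Libraries from the same mouse (technical replicates per the labels) were summed. Genes were filtered with filterByExpr (minimum count 10, 2076 of 13572 rows kept) and tested with edgeR 4.0.16 (quasi-likelihood test, TMM scaling, adjusted p under 0.05 by Benjamini-Hochberg across the tested genes). Standard errors and 95% intervals were derived from each gene's fold change and F. Genes under the filter were compared by exact two-sided permutation of log2(CPM + 1) over the 70 assignments of the mice, whose smallest p is 0.0286. These p values were not adjusted. Alternatives used DESeq2 1.42.0 and limma 3.58.1, in R 4.3.3. Promoter sequences are from RefSeq, and gene positions and exon lengths from GENCODE M21. Libraries held 25571 to 98554 counts, which limits the precision of low genes.

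Mouse numbers recur in both groups but were not treated as pairs, since the deviations of same-numbered mice correlated by −0.0893 to 0.1. No 2 libraries were duplicates (chi-squared per degree of freedom 2.17 or more). The 10 genes and all lists were chosen with earlier results of these data known. Named besides the 10 were every called gene of each pathway list, or, in a list with no call, up to 2 tested genes of smallest p, and the 3 genes most like each tested one over pools, except for Nfkb1, whose list is not reported here.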

Additional observations from a re-analysis of the deposited data

How the results depend on the processing

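The count of called NF-kB genes stayed at 0 in each direction under all alternatives tried, with 3 to 10 of the 10 genes tested. Calls among all genes went to 194 with no count filter, to 155 with a filter of 10 counts in all and a count in 4 mice, and to 13 of 873 tested genes when the 10 libraries with other cells' markers were left out. They were 73 with the mouse number as a replicate block (45 higher and 28 lower) and ran from 56 (without control mouse 2) to 111 over the fits without a mouse, against 103. The block changed no call of the 10 genes, and of the other named genes it ended that of Tlr3 (adjusted p = 0.077).

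Signs turned for genes that were not called. With limma-voom over libraries Nfkbia had a log2 fold change of 0.13 and Tnfaip3 of −0.54. Without the 10 libraries Nfkbia had 0.28, Rel 0.068 (−0.65 to −0.28 in the fits without a mouse) and Nfkbiz a difference of 0.52. Traf1 had −0.041 with upper quartile factors and −0.0039 with the filter on 4 mice. Over fits without a mouse Nfkbia ran from −0.66 to 0.22, Tnfaip3 from −0.78 to 0.61, Traf1 from −0.12 to 0.17, Nfkbiz from −0.56 to 0.31 and Sod2 from −0.43 to 0.32. The cause was not tested. Nfkb2 (0.99 to 1.95) and Cflar (0.68 to 1.22) kept their direction in all 10 alternatives each. They rest on 20 to 56 counts per group.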
